A study of Mus musculus with 8 samples.

Results

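The 46 genes described here act in fatty acid oxidation and in the handling of ketone bodies. They were chosen by name from GENCODE among 21938 protein-coding genes on the mm10 genome, and all 46 were found. For each start site the distance to the nearest region enriched for H3K27-me3 was measured in fasted liver, with JMJD3 present or downregulated in hepatocytes. H3K27-me3 is the trimethylation of lysine 27 on histone H3, which marks silent chromatin, and JMJD3 is the demethylase encoded by Kdm6b. The data came from H3K27-me3 ChIP-seq on liver of male C57BL/6 mice, all carrying the floxed Jmjd3 allele, which received virus when 8 weeks old and were studied 12 weeks later, after a 16 h fast. One group had received AAV-TBG-Cre for downregulation of JMJD3 and the other AAV-GFP as the control. The TBG promoter drives Cre in hepatocytes, so the other cells of the liver kept Jmjd3. Each group had 2 H3K27-me3 and 2 input libraries from 2 mice.

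The authors pooled the H3K27-me3 libraries of each group into 1 list of regions, so the 2 lists hold no values per mouse. The spread between mice is therefore not known, no test between the groups was made, and every interval below is a Wilson 95% interval that covers counting error only. The AAV-TBG-Cre list held 59267 regions and the AAV-GFP list 34586, with median widths of 753 and 231 bp, and read depth is not given in the lists. A longer list places more genes near a region, so the counts over the 46 members within 1, 15 and 50 kb are set beside the share of all 21938 genes in the same list. A gene without a region is one where none was called, which does not show that the mark was absent. The lists do not measure the deletion of Jmjd3 itself. To describe the tissue, 0 of 12 hepatocyte marker genes had a region within 15 kb in either list. Of 12 markers of other liver cells, 10 had one in AAV-TBG-Cre and 8 in AAV-GFP, and 12 of 12 silent lineage regulators did in both. Of all genes, 41.5% had one in AAV-TBG-Cre and 27.9% in AAV-GFP. These marker lists were chosen with earlier results of these data known, so the counts are not an independent check.

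In fasting, the liver takes up fatty acids released by adipose tissue, ties them to coenzyme A, carries them into mitochondria as carnitine esters and shortens them step by step by β-oxidation. Peroxisomes shorten very long and branched chains. The acetyl-CoA formed is turned into ketone bodies, which the liver exports and does not burn, because it lacks the enzyme that activates them. Many genes of this pathway are induced in fasting by the nuclear receptor PPARα, which binds DNA with its partner RXR at direct repeats.

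Of the 46 genes, 3 had an H3K27-me3 region within 1 kb of a start site in the AAV-TBG-Cre list, and these were Acsl6, Oxct1 and Cpt1c. This was 6.52% of the members (2.24 to 17.5), against 23.9% of all protein-coding genes. In the AAV-GFP list Acsl6 and Oxct1 had one, 2 members or 4.35% (1.2 to 14.5), against 16.6% of all genes. Cpt1c was thus the 1 member marked within 1 kb only in the AAV-TBG-Cre list, where 7.62% of all genes were. These 3 genes are known for their use outside the liver. Acsl6 is an acyl-CoA synthetase of brain, Cpt1c is the brain form of carnitine palmitoyltransferase, and Oxct1 is the enzyme that lets tissues other than liver burn ketone bodies. With Cpt1b, the muscle form of the palmitoyltransferase, and Slc27a1, a fatty acid transporter of muscle and fat, they make up the 5 members listed as isoforms used mainly outside the liver.

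The list of isoforms was made with earlier results known and holds all 3 members marked within 1 kb, so that the other 41 members had no region there follows from the choice and supports nothing. These 41 genes held no region anywhere between their annotated ends, over 1.18 Mb of gene sequence in all. This follows from the same choice, since the 3 members with a region inside the gene were again Acsl6, Cpt1c and Oxct1. With the isoforms included, 3 of 46 members had a region inside the gene in the AAV-TBG-Cre list, against 28.8% of all genes, and 2 of 46 in the AAV-GFP list, against 20.7% of all genes. The median gene length was 26.1 kb for the members and 17.4 kb for all genes. The regions inside Acsl6, Cpt1c and Oxct1 covered 12156 bases in the AAV-TBG-Cre list and 2079 bases in the AAV-GFP list.

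The promoters of the marked genes and of Cpt1a, the liver form of carnitine palmitoyltransferase, are given to show what sequence the mark did and did not cover. They are RefSeq promoters on GRCm38.p6, 250 bases before to 50 bases after a start, read 5′ to 3′ on the strand of the gene, with each CpG in capitals. The Acsl6 promoter at chr11:54303574-54303873 on the plus strand lay whole within the AAV-TBG-Cre region, and 87 of its 300 bases lay within the AAV-GFP region.
Acsl6: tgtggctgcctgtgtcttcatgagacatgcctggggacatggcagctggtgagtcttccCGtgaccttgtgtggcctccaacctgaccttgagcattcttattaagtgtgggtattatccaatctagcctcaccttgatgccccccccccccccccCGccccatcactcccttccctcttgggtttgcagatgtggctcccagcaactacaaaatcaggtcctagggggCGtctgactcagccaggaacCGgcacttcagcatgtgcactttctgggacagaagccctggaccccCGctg
The Oxct1 promoter at chr15:4026178-4026477 on the plus strand lay whole within the AAV-TBG-Cre region and shared 0 bases with an AAV-GFP region.
Oxct1: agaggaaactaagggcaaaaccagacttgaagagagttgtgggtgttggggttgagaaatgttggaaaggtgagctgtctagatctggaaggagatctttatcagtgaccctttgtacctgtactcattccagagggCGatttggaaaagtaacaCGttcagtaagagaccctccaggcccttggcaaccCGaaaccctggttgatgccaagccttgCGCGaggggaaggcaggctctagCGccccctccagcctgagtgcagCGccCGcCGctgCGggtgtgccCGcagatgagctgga
The Cpt1c promoter at chr7:44974802-44975101 on the minus strand shared 0 bases with a region of either list, since the regions of Cpt1c began inside the gene.
Cpt1c: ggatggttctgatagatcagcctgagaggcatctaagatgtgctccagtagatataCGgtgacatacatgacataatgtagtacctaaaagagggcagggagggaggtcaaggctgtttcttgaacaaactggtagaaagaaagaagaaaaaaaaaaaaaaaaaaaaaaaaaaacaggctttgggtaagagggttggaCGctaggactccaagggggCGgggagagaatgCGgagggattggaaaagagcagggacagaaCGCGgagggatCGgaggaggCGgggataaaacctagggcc
The Cpt1a promoter at chr19:3323051-3323350 on the plus strand shared 0 bases with a region of either list.
Cpt1a: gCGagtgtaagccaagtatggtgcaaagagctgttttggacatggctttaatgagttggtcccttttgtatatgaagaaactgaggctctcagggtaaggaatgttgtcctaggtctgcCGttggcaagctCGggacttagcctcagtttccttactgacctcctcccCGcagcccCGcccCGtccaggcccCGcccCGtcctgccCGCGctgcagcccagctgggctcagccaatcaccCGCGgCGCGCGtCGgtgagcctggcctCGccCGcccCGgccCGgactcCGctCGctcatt
CpG numbers in these windows were 5 for Acsl6, 11 for Oxct1, 8 for Cpt1c and 22 for Cpt1a, so the unmarked Cpt1a promoter was the richest of these 4 windows. The Acsl6 window does not cover all start sites of the gene, so this order depends on the start chosen. The region with the lowest q-value within 15 kb of a member had its summit downstream of the Acsl6 window, at chr11:54304186. Another annotated start of Acsl6 lay close to that summit, at chr11:54304202. The 200 bases around the summit of the AAV-TBG-Cre region, at chr11:54304087-54304286 on GRCm38, held 29 CpGs and 79.5% G and C.
Acsl6 summit: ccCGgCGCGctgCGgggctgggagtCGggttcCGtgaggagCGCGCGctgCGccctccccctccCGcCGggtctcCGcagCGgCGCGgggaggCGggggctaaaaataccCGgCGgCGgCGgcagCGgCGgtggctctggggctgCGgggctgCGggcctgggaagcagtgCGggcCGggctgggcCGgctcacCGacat

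**Figure D1:**
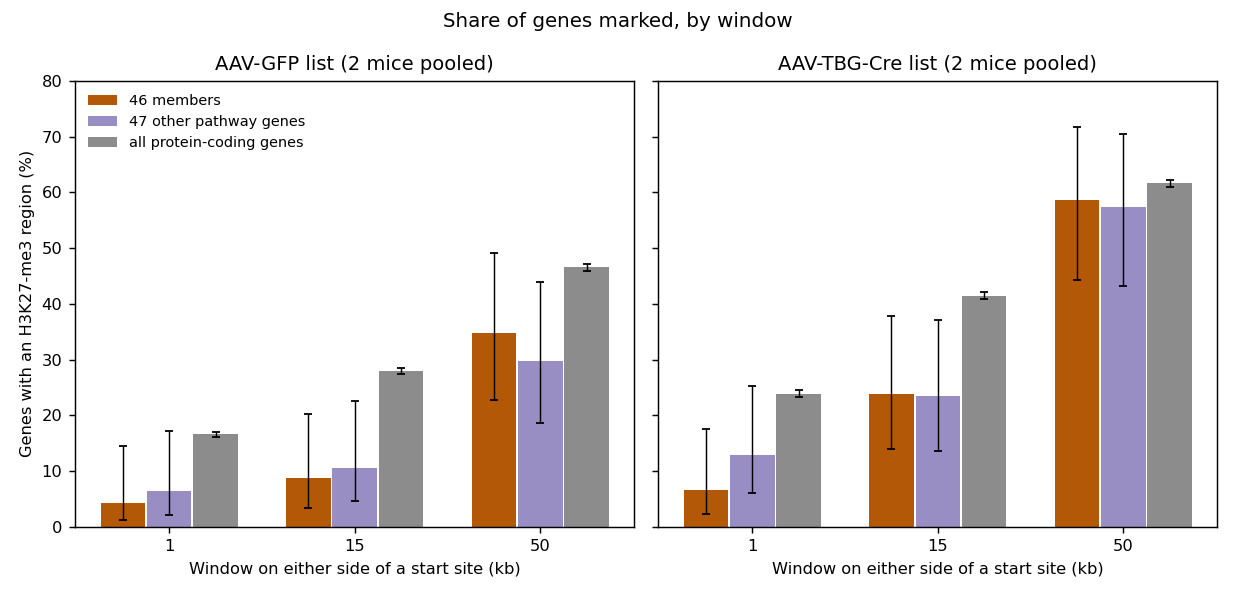
Share of genes (%) with an H3K27-me3 region within 1, 15 or 50 kb of a start site, in the AAV-GFP list (left) and the AAV-TBG-Cre list (right), for the 46 members, 47 other genes of the pathway and all 21938 protein-coding genes; lines are Wilson 95% intervals. At 15 kb the members stood at 8.7% and 23.9%, and all genes at 27.9% and 41.5%.

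Within 15 kb, 11 members had a region in the AAV-TBG-Cre list, or 23.9% (13.9 to 37.9), where 41.5% of all genes had one. In the AAV-GFP list 4 members had one, or 8.7% (3.43 to 20.3), where 27.9% of all genes had one. The 4 members Acadvl, Acsl6, Oxct1 and Slc27a1 were marked in both lists, against 26.7% of all genes. The 7 members Acadl, Acot2, Cpt1a, Cpt1c, Etfa, Etfb and Hsd17b4 were marked only in the AAV-TBG-Cre list, which is 15.2% of the members (7.57 to 28.2) and near the 14.8% of all genes. Marks only in the AAV-GFP list were found at 0 members, against 1.22% of all genes. The remaining 35 members had no region within 15 kb in either list. When both lists were cut to their 34586 regions with the lowest p-values, 7 members were marked in AAV-TBG-Cre, where 36.1% of all genes were.

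At 50 kb the members came close to the rest of the genome in the AAV-TBG-Cre list. There 27 members had a region, or 58.7% (44.3 to 71.7), against 61.7% of all genes. In the AAV-GFP list 16 had one, or 34.8% (22.7 to 49.2), against 46.6% of all genes, and the 11 members marked only in AAV-TBG-Cre were 23.9% against 17.2% of all genes. Most of the regions found at this width were closest to neighbours. The same share for windows around other genes is not given here, so whether this is particular to the members cannot be told. Of the 99 AAV-TBG-Cre regions within 50 kb of a member, 73 were closest to the start site of another protein-coding gene, and of the 64 AAV-GFP regions 58 were. The median distance from a member to its nearest region was 39.1 kb in AAV-TBG-Cre and 63.3 kb in AAV-GFP, against 26.7 and 58.3 kb over all genes. The nearest region was closer in the AAV-TBG-Cre list for 44 of 46 members, the same for Acsl6 and closer in the AAV-GFP list for Decr2. Over all genes the AAV-TBG-Cre region was the closer one for 76.9%. For 15 members the 2 distances differed by at most 1.5 kb, as for 34.7% of all genes.

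**Figure D2:**
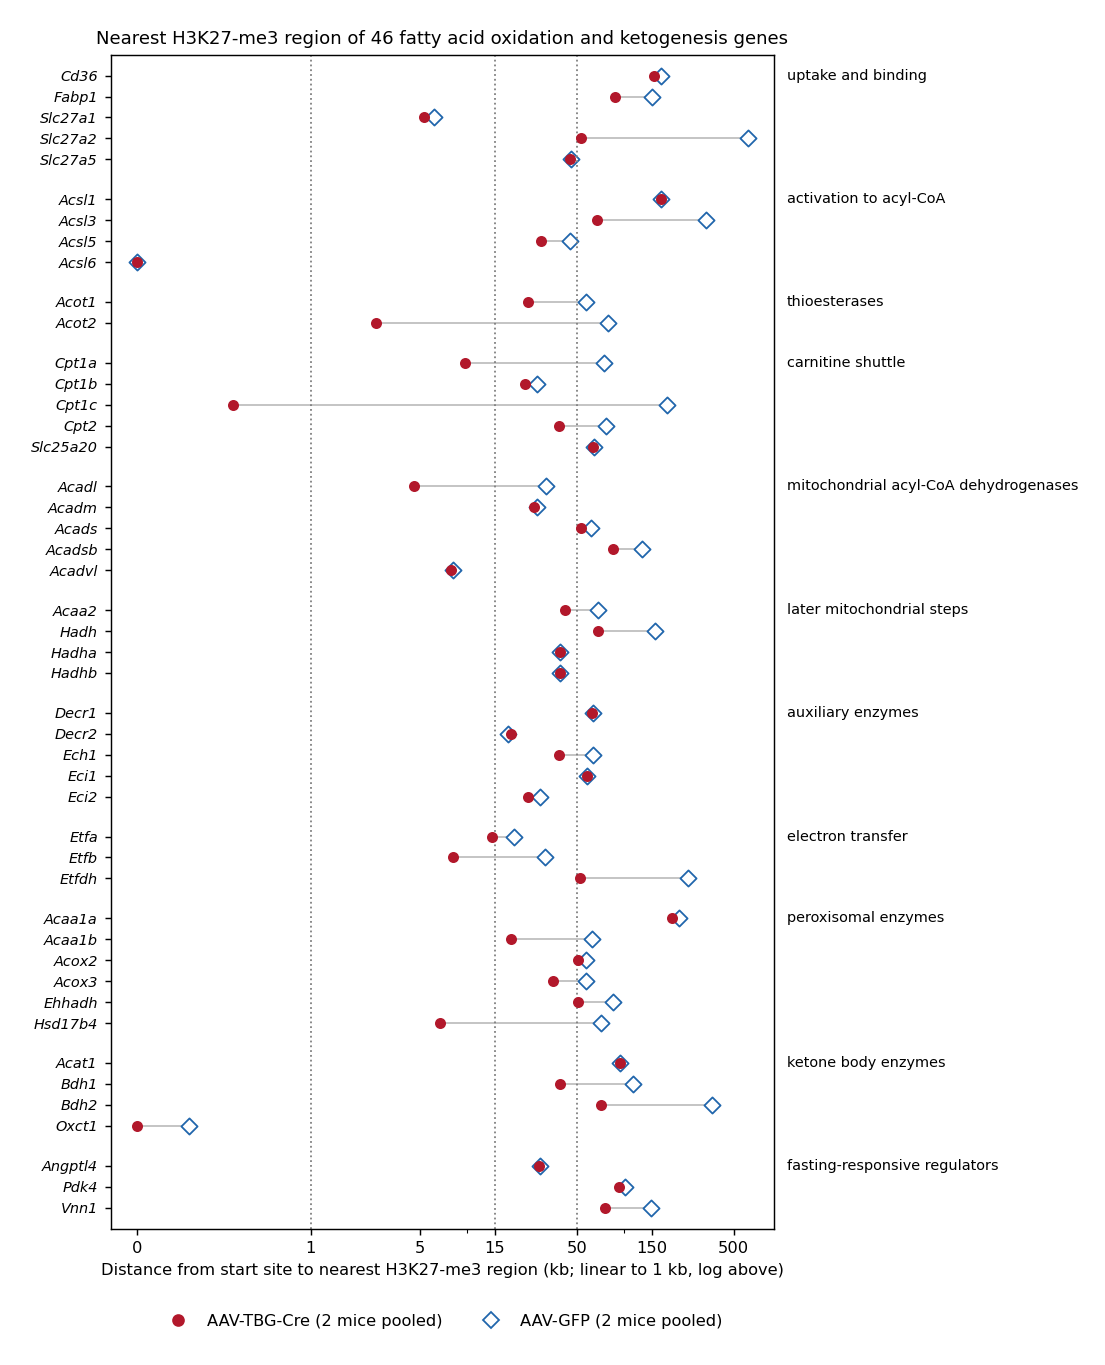
Distance in kb (linear to 1 kb, logarithmic above) from a start site to the nearest H3K27-me3 region for each of the 46 members, grouped by role, in the AAV-TBG-Cre list (filled circles) and the AAV-GFP list (open diamonds), each from 2 pooled mice; dotted lines mark 1, 15 and 50 kb. Acsl6, Oxct1 and Cpt1c lie left of 1 kb, and the other members spread from 2.6 to 203 kb in the AAV-TBG-Cre list.

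The roles below hold 2 to 6 members each. In each of the 11 roles the Wilson interval of the share marked within 15 kb included the share of all genes, 41.5% in AAV-TBG-Cre and 27.9% in AAV-GFP, so no role stood apart from the background by its count.

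Uptake and binding came first in the pathway. Slc27a1 was the marked member of this group of 5, through regions closer to the start sites of its neighbours. It had 4 AAV-TBG-Cre regions 5299 to 12664 bp upstream and 5 AAV-GFP regions 6135 to 11663 bp upstream, all closest to the start sites of Nxnl1 or Tmem221. The widest, at chr8:71556532-71560616, spanned 4085 bp and was enriched 5.76-fold over the local background (q-value 4.33e-35). The remaining genes of uptake had no region within 15 kb in either list. Cd36, the fatty acid translocase, was 155 kb from a region in AAV-TBG-Cre and 173 kb in AAV-GFP. Fabp1, which binds fatty acids in the hepatocyte cytosol, was 87.9 and 150 kb away. The very long chain acyl-CoA synthetase Slc27a2 was 53.5 kb away in AAV-TBG-Cre and 618 kb in AAV-GFP, the largest distance of any member in that list. Slc27a5, which activates bile acids and fatty acids, was 45.1 and 46.2 kb away.

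Activation to acyl-CoA split between Acsl6 and the synthetases of the liver. At Acsl6 a region of 2940 bp lay over the start site in the AAV-TBG-Cre list, at chr11:54302266-54305205, enriched 9.52-fold (q-value 3.14e-39) and among the top 1.95% of its list by p-value. The AAV-GFP region at the same start, chr11:54303787-54304880, was 1094 bp wide with a fold of 3.89 and a q-value of 2.26e-11, among the top 4.02% of its list. Both overlap an exon of Acsl6, and a second AAV-TBG-Cre region of 845 bp lay 1421 bp downstream in an intron. Further AAV-TBG-Cre regions inside the gene lay 16477 and 17195 bp downstream of a start site, with folds of 2.21 and 2.64 and q-values of 0.137 and 0.0086, and no other protein-coding start was closer to them. Folds depend on the depth of each list and were not compared between the lists. Acsl1, the main synthetase of liver, was 171 kb from a region in AAV-TBG-Cre and 173 kb in AAV-GFP. Acsl5 was 29.4 and 45 kb away, and Acsl3 67 and 333 kb away. Of the thioesterases, which cleave acyl-CoA, Acot1 was 24.2 and 57.1 kb away. Its mitochondrial neighbour Acot2 had 2 AAV-TBG-Cre regions, 2595 and 4165 bp upstream, with folds of 2.72 and 2.21 and q-values of 0.0017 and 0.137. Both lay in Heatr4, whose start site was closer, and the nearest AAV-GFP region was 78.7 kb away.

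In the carnitine shuttle the isoforms of the palmitoyltransferase differed. Cpt1c had 4 AAV-TBG-Cre regions, all inside the gene and over coding exons, at 552, 1434, 2282 and 7647 bp downstream of a start site. The strongest, chr7:44971019-44972493, was 1475 bp wide with a fold of 4.82 and q-value of 1.4e-10, and the one nearest to the start, chr7:44973547-44974223, had a fold of 3.61 (q-value 2.76e-06). In the AAV-GFP list the first region was 188 kb away and closest to Slc17a7. Cpt1a, the rate-limiting step of fatty acid entry in liver, had no region in the gene. A region of 598 bp lay 9613 bp upstream in the AAV-TBG-Cre list, at chr19:3313075-3313672, between genes and with no protein-coding start site closer. Its fold was 2.3 and its q-value 0.0573, and 89% of the list had a lower p-value. A second one lay 15377 bp upstream (q-value 0.0302), and in AAV-GFP the first region was 74.8 kb away. Cpt1b, although an isoform of muscle, had no region nearer than 23.3 kb in AAV-TBG-Cre or 27.8 kb in AAV-GFP, both closest to Mapk8ip2. Cpt2, which remakes acyl-CoA inside the mitochondrion, was 38.2 and 76.8 kb away, and the carnitine carrier Slc25a20 was 63.2 and 64.3 kb away.

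**Figure D3:**
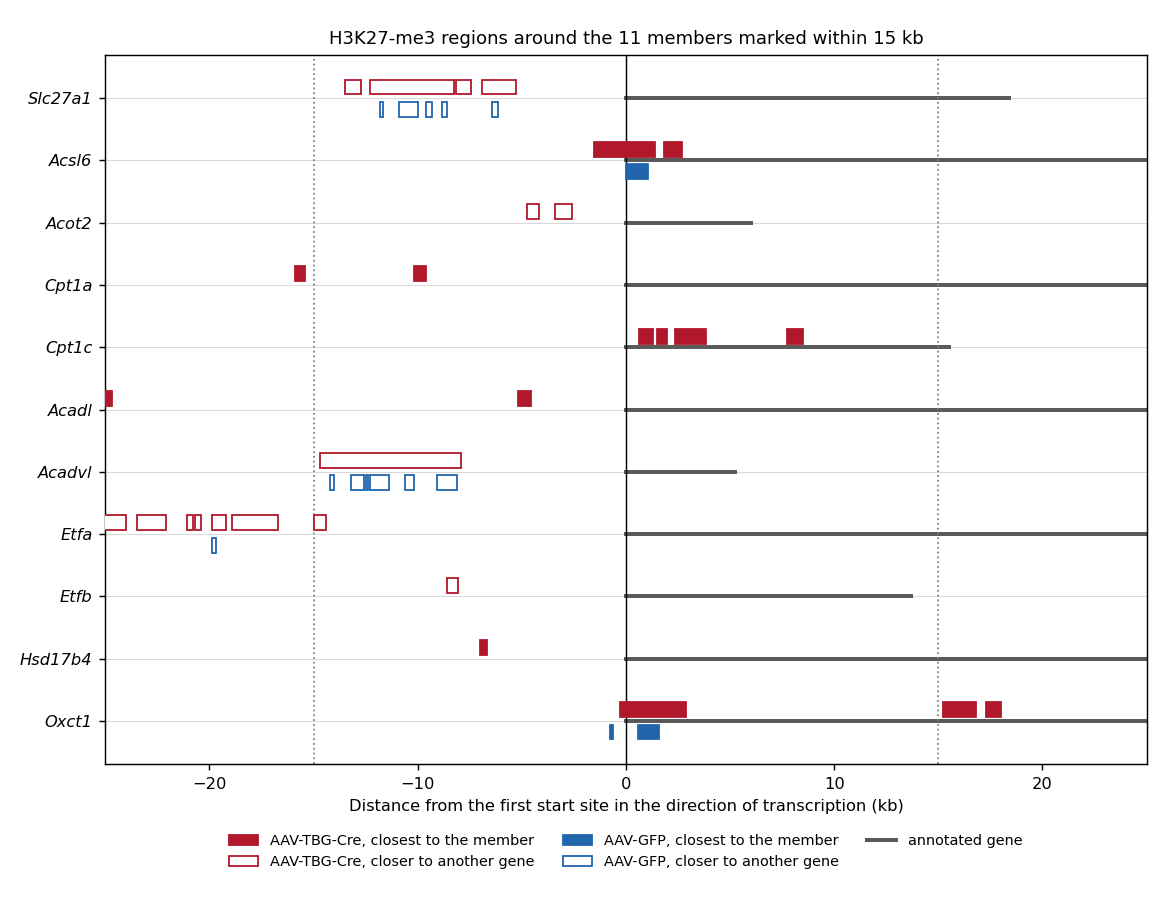
H3K27-me3 regions around the first start site of the 11 members marked within 15 kb, in kb along the direction of transcription, with AAV-TBG-Cre regions above and AAV-GFP regions below the line of the gene; filled boxes are closest to the start site of the member, open boxes to that of another protein-coding gene, the dark line is the annotated gene and dotted lines mark 15 kb. The 3 members Acsl6, Cpt1c and Oxct1 have boxes within the gene, and at the other 8 every box within 15 kb lies upstream. Where the gene reaches beyond 15 kb, this follows from having no region inside the gene.

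Acyl-CoA dehydrogenases catalyse the first step of each β-oxidation round, each on a range of chain lengths. Acadl, for long chains, had a region of 605 bp 4552 bp upstream in the AAV-TBG-Cre list, at chr1:66867829-66868433, with a fold of 2.38 and a q-value of 0.0573. Its nearest AAV-GFP region was 31.7 kb upstream with a fold of 2.14 and a q-value of 0.979, and an AAV-TBG-Cre region lay over that place too. Acadvl, for very long chains, had the widest region within 15 kb of any member, 6741 bp at chr11:70023322-70030062, with a fold of 9.27 and a q-value of 5.47e-39. It began 7914 bp upstream of Acadvl but lay over the start of Dlg4, a scaffold protein of synapses. In the AAV-GFP list 6 regions 157 to 1001 bp wide lay within the same stretch. The others were unmarked, with Acadm, for medium chains, at 26.7 and 27.9 kb and its nearest regions at Slc44a5. Acads was 53.5 and 61.4 kb away and Acadsb 85.6 and 130 kb. Of the 4 later mitochondrial members 0 were marked within 15 kb in either list (up to 49%), against 41.5% and 27.9% of all genes. Hadha and Hadhb, the subunits of the trifunctional protein, start next to each other in opposite directions. Their nearest region in either list was 39.1 kb (Hadha) and 39.2 kb (Hadhb) away. A further annotated start of Hadha, outside the start sites used here, was nearer. It lay 4228 bp from that AAV-TBG-Cre region and 4254 bp from that AAV-GFP region. Counted by it, Hadha would be marked within 15 kb in both lists. Hadh was 67.9 and 157 kb away and Acaa2 42.2 and 67.8 kb.

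Electrons from the dehydrogenases pass to the electron transfer flavoprotein, whose subunits are Etfa and Etfb. Both were marked within 15 kb only in AAV-TBG-Cre, through regions nearer to other genes. The Etfa region, 552 bp wide with a fold of 2.69 and a q-value of 0.0086, lay 14450 bp upstream and was 13904 bp from Isl2, a homeobox gene. The AAV-GFP list had a region 19.7 kb from Etfa that was also closest to Isl2. The Etfb region, 500 bp wide with a fold of 2.6 and the same q-value, lay 8074 bp upstream over an exon of Lim2 and 1064 bp from Nkg7. Etfdh, which hands the electrons to ubiquinone, was 52 and 255 kb away. The 5 auxiliary enzymes, which handle double bonds of unsaturated chains, had no region within 15 kb (0 of 5, up to 43.4%), against 41.5% and 27.9% of all genes. Decr2 came closest, at 19 kb in AAV-TBG-Cre and 18.1 kb in AAV-GFP, and both regions were closest to Tmem8. Eci2 followed at 24.3 and 29 kb, and Ech1, Eci1 and Decr1 lay 38.7 to 62.8 kb away in AAV-TBG-Cre and 58.4 to 63.4 kb in AAV-GFP.

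Among the 6 peroxisomal members Hsd17b4, the bifunctional enzyme of branched-chain oxidation, was marked within 15 kb. Its AAV-TBG-Cre region of 349 bp lay 6668 bp upstream between genes, at chr18:50121185-50121533, with a fold of 2.86 and a q-value of 0.00299, and its nearest AAV-GFP region was 71.4 kb away. The paralogous thiolases differed in distance. Acaa1b was 18.9 kb from a region inside Dlec1 in AAV-TBG-Cre and 62.3 kb in AAV-GFP, whereas Acaa1a was 203 and 225 kb away, the largest AAV-TBG-Cre distance of any member. How reads that match both copies of near-identical genes, such as these thiolases or Acot1 and Acot2, were treated is not given in the sources used here. Acox2, Acox3 and Ehhadh lay 35.1 to 51.1 kb away in AAV-TBG-Cre and 57.1 to 85.2 kb in AAV-GFP.

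Of the ketone body enzymes, Oxct1 was marked at its start in both lists. The AAV-TBG-Cre region at chr15:4026078-4029258 was 3181 bp wide with a fold of 4.26 and a q-value of 9.71e-16, among the top 7.55% of its list. The AAV-GFP list had a region of 996 bp within it, 299 bp downstream of a start site at chr15:4026983-4027978, with a fold of 3.73 and a q-value of 9.89e-08, among the top 7.45%. A second AAV-GFP region of 170 bp, 599 bp upstream with a q-value of 0.0671, had no AAV-TBG-Cre region over it, although the gap between them was under 1 kb. Further AAV-TBG-Cre regions lay in an intron, 14930 and 17044 bp downstream. The other 3 members of this group were not marked within 15 kb. Bdh1, which forms β-hydroxybutyrate, was 39.1 kb from a region in AAV-TBG-Cre and 115 kb in AAV-GFP. The cytosolic Bdh2 was 71.7 and 366 kb away, and Acat1, the mitochondrial acetoacetyl-CoA thiolase, 94 and 94.4 kb.

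The 3 members known for strong induction by fasting had no region within 15 kb in either list (0 of 3, up to 56.1%), against 41.5% and 27.9% of all genes. Pdk4, the kinase that turns off pyruvate dehydrogenase, was 92.7 kb from a region in AAV-TBG-Cre and 102 kb in AAV-GFP, both at Asb4. Angptl4, an inhibitor of lipoprotein lipase, was 28.6 and 29.1 kb away, with both regions at Kank3. Vnn1, a pantetheinase, was 76.1 and 148 kb away.

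Of the 20 AAV-TBG-Cre regions within 15 kb of a member, 11 were closest to the start of the member itself, at 6 genes, and 9 were closest to another protein-coding gene. These 6 genes were Acadl, Acsl6, Cpt1a, Cpt1c, Hsd17b4 and Oxct1. Of the 14 AAV-GFP regions, 3 were closest to a member, at Acsl6 and Oxct1. No such share for windows around other genes is given here. Between 15 and 50 kb, Acaa1b, Acaa2, Acox3 and Bdh1 also had AAV-TBG-Cre regions for which no other protein-coding gene was closer, 2 at each gene and all downstream of the start site. Those of Acaa2, 42.2 and 47 kb away, had folds of 4.08 and 3.47 and q-values of 7.9e-08 and 2.27e-05, and the other 6 had folds of 2.43 to 3.17. Acadl had 3 such regions in each list, 24.7 to 34.1 kb upstream in AAV-TBG-Cre and 31.7 to 34.7 kb upstream in AAV-GFP. By overlap, 13 of the 14 AAV-GFP regions were shared with AAV-TBG-Cre, and 5 of the 20 AAV-TBG-Cre regions with AAV-GFP. The AAV-TBG-Cre list covered 73.7 Mb and the AAV-GFP list 14.9 Mb. The shares of all regions that overlap the other list are not given here, so whether these counts are particular to the members cannot be told. At the 8 members without a region inside the gene, every region within 15 kb lay upstream of the start site. For Acadl, Cpt1a, Etfa, Hsd17b4 and Slc27a1 this follows from that choice, since their genes reach more than 15 kb downstream. The genes Acadvl, Acot2 and Etfb end 5.22, 6.01 and 13.7 kb downstream. The evidence behind the regions found only in AAV-TBG-Cre was uneven. Cpt1a and Acadl lost their mark within 15 kb at a q-value threshold of 0.05, Etfa and Etfb when both lists had the same number of regions, and Acot2 and Hsd17b4 at a −log10 p of 5. The share of members marked only in AAV-TBG-Cre was near that of all genes for the full lists and lower than it under these settings. It was 5 of 46 against 19.3% of all genes at a q-value threshold of 0.05, 3 of 46 against 10% with the same number of regions, and 1 of 46, Cpt1c, against 15.6% at a −log10 p of 5. The Wilson interval of 3 of 46, 2.24 to 17.5%, includes 10%, and those of 5 and 1 of 46 are not given here. At that last setting Acadvl, Acsl6, Oxct1 and Slc27a1 were marked in both lists.

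Start sites rich in CpG are known to recruit the Polycomb complexes that set H3K27-me3, so the CpG content within 1 kb of the first start site was compared. The median observed/expected ratio was 0.484 for the members and 0.484 for all genes. A ratio of 0.6 or more was found at 15 members (32.6%) and at 34.8% of all genes. Of these 15 CpG-rich members, 1 (6.67%), Oxct1, had an AAV-TBG-Cre region within 1 kb, whereas 23.1% of all CpG-rich genes did. Of the 31 members with a ratio under 0.6, 2 (6.45%) had one, against 24.3% of all such genes. Within 1 kb, the marked shares in the AAV-TBG-Cre list were thus similar in the 2 CpG classes. Within 15 kb, 5 of the 15 CpG-rich members (33.3%) and 6 of the 31 others (19.4%) had a region. Over all genes these shares were 41.5% and 41.6%. The class rests on the first start site only, and the 200 bases around the AAV-TBG-Cre summit in Acsl6 had a ratio of 0.941. Whether CpG content and the mark are related was not tested. In the AAV-GFP list 19.4% of all CpG-rich genes and 15.1% of the others had a region within 1 kb. Acsl3 had the highest ratio, 0.854, and was 67 kb from a region. Acsl6 and Cpt1c had ratios of 0.454 and 0.314. The 20 AAV-TBG-Cre regions within 15 kb of a member held from 0.458 (Cpt1c, 1434 bp downstream) to 4.36 (Slc27a1, 5299 bp upstream) CpGs per 100 bases, against a median of 1.32 over the list. Those over the starts of Acsl6 and Oxct1 held 2.76 and 4.18. The AAV-GFP regions inside the same genes held 5.94 and 5.52, against a list median of 1.46.

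**Figure D4:**
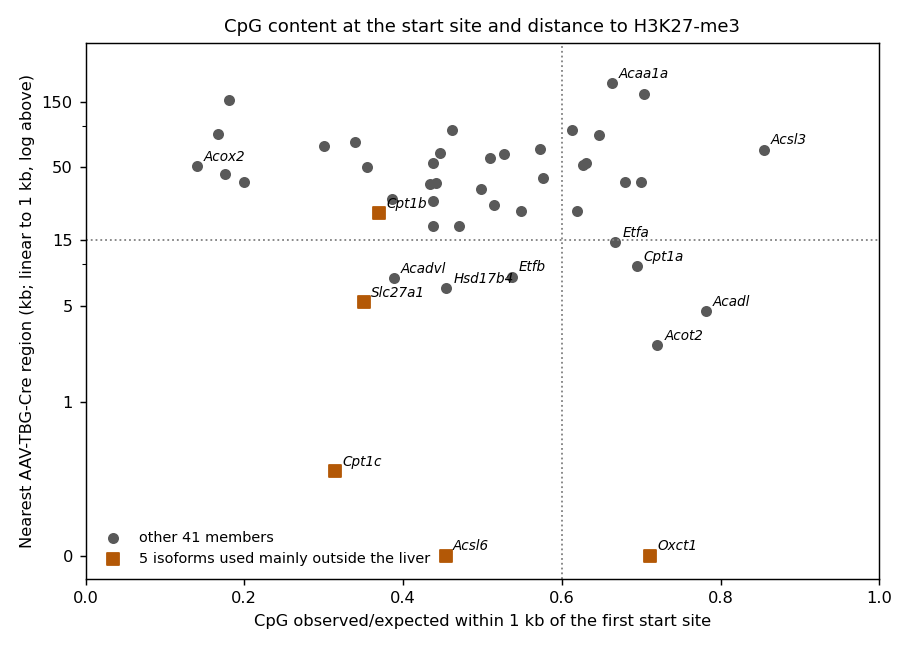
CpG observed/expected ratio within 1 kb of the first start site (horizontal) against the distance in kb to the nearest AAV-TBG-Cre region (vertical, linear to 1 kb, logarithmic above) for the 46 members; squares are the 5 isoforms used mainly outside the liver, and dotted lines mark a ratio of 0.6 and a distance of 15 kb. Genes with a ratio of 0.6 or more lie from 0 kb (Oxct1) to 203 kb (Acaa1a).

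PPARα with RXR binds 2 copies of AGGTCA that are 1 base apart. This repeat was searched with at most 2 mismatches on both strands of the RefSeq promoters, which were found for 38 of the 46 members, in 45 windows of 300 bases, and not for Acaa2, Acat1, Angptl4, Cpt1b, Decr1, Hsd17b4, Slc27a5 and Vnn1. A match was present in 5 of the 45 windows (11.1%), at Acox2, Cd36, Etfa, Fabp1 and Slc25a20, and in 3.86% of all 32851 promoters. The Fabp1 match had 1 mismatch and the others 2, and they are given with both copies in capitals.
Fabp1: AGGCCAtAGGTCA
Slc25a20: AGGTGAaAGGTCG
Etfa: AGGGCAaAGGTAA
Acox2: AGGACAgAGGTGA
Cd36: AAGTCAgAGGCCA
The Fabp1 match lies in the window chr6:71199629-71199928 and the Slc25a20 match in chr9:108661886-108662185, both of the plus strand. Those of Etfa, Acox2 and Cd36 lie in chr9:55512194-55512493, chr14:8258790-8259089 and chr5:17835847-17836146, of the minus strand. Of these 5 genes Etfa had the nearest region, at 14.4 kb in AAV-TBG-Cre, and the others were 51.1 kb or more from one in either list. A match is a description of the letters and not evidence of binding.

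Other genes of the pathway were read in the same way. Of 47 such genes, 11 had a region within 15 kb in AAV-TBG-Cre (23.4%, 13.6 to 37.2) and 5 in AAV-GFP (10.6%, 4.63 to 22.6). Both shares were near those of the members, against 41.5% and 27.9% of all genes. Within 1 kb there were 6 and 3 of 47, against 23.9% and 16.6% of all genes. Fabp3, the fatty acid binding protein of heart, had a region over its start in both lists, with folds of 9.58 and 7.41. Abcd2, a peroxisomal transporter of very long chains, had one over its start in AAV-TBG-Cre and 874 bp away in AAV-GFP. Acot5 had one 110 and 629 bp away. Fabp5, Slc27a3 and Slc27a6 were marked within 1 kb only in AAV-TBG-Cre, with their nearest AAV-GFP regions 72.8 to 83.8 kb away. Fabp4, the binding protein of adipocytes, had a region 2392 bp away in AAV-TBG-Cre and 233 kb away in AAV-GFP. Fabp3, Fabp4 and Fabp5 are known for their use in muscle, fat and skin, and they stand beside Fabp1, the liver form, at 87.9 and 150 kb. Fabp2, also among the 47 genes, was 107 kb away in AAV-TBG-Cre and 162 kb in AAV-GFP, so Fabp1 was not the only distant form. Whether hepatocytes or other cells of the liver carried the regions near these genes was not measured, since the ChIP was made on whole liver tissue.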

How the data were processed

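Livers of 2 mice per virus group were used by the authors for H3K27-me3 ChIP-seq, and the sample labels gave the groups. The authors used the AQUAS pipeline with bwa 0.7.13, Samtools 1.2 and Picard 1.126 on mm10, per the labels, and called peaks with MACS against pooled input, keeping peaks that overlapped across replicates. The deposited lists hold, per peak, a position, a display score that was not used, a fold enrichment, and the −log10 of a p-value and of a q-value. Broad marks called as narrow peaks can be split into several regions.

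Distances were measured to the start sites of GENCODE M21 basic transcripts with Python 3.11.15, numpy 2.4.6 and pandas 2.3.3, and checked against a direct search on simulated data. A gene was marked when a region lay within the window, so a close neighbour can mark it, and the closest protein-coding start site is named. Shares have Wilson 95% intervals. No read counts are given, so depth and the precision it allows are unknown, and p-values and folds describe peaks within 1 list. An overlap of 1 bp or more made regions shared. Base composition was read from GRCm38 within 1 kb of the first start site, where 0 regions passed a chromosome end. The members, the lists of genes and the isoforms used mainly outside the liver were chosen with earlier results of these data known. All 46 members were accounted for, in full where a region lay within 15 kb, with Cpt1a, Cpt1b, Cpt1c, Acadm, Pdk4 and Angptl4 always given. Regions from 15 to 50 kb were named where a member was closest, and other pathway genes where a region lay within 1 kb. Fabp2 and Fabp4 were added after their values were seen. Alternatives were q-value thresholds of 0.05 and 0.01, a −log10 p of 5, the same number of regions per list, a width of at least 300 bp, other start sites and windows, and regions closest to the member only.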

Additional observations from a re-analysis of the deposited data

How the results depend on the processing

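The counts of 3 and 2 members within 1 kb were the same under each alternative run, and 0 members were marked within 15 kb only in AAV-GFP under each. The 11 AAV-TBG-Cre, 4 AAV-GFP and 7 AAV-TBG-Cre-only members within 15 kb became 6, 2 and 4 with only regions closest to the member, 5, 2 and 3 within 5 kb, and 3, 2 and 1 with a region inside the gene or within 1 kb. They became 5 in AAV-TBG-Cre and 1 in AAV-TBG-Cre only at a −log10 p of 5, and 7 and 3 with the same number of regions per list, where 34.4% and 36.1% of all genes were marked in AAV-TBG-Cre; fewer regions enter both. Within 50 kb, 10 and 3 members had a region closest to themselves. No share of all genes is given here for this count. The same holds for regions closest to the member, the 5 kb window and regions inside the gene or within 1 kb. It also holds for the start sites of all annotated transcripts, with which the counts within 15 kb rose to 15, 5 and 10. Within 50 kb, the counts with those start sites rose from 27 to 31 in AAV-TBG-Cre and from 16 to 18 in AAV-GFP. Shared AAV-TBG-Cre regions were 0 with overlap over at least 0.5 of the region, since those regions are wider, and 8 within 1 kb. Of 90 positions of named members relative to 15 kb, 76 held in AAV-TBG-Cre and 90 in AAV-GFP. Start sites of RefSeq curated mRNAs were chosen after seeing the data. No paired analysis was possible because replicates were pooled before the lists were made, and leaving out a mouse could not be run. Unknown depth limits the reading of unmarked genes.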
